A study of Mus musculus with 4 samples.

Results

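The EGR, IER and NR4A immediate-early genes, together with Srf, were described in mouse macrophages of the clone RAW G9, derived from the line RAW264.7. The 10 genes were taken as a list of names (Egr1, Egr2, Egr3, Ier2, Ier3, Ier5, Nr4a1, Nr4a2, Nr4a3 and Srf), and each probe that the platform annotation gives to them was used. This gave 14 probes of the 45281 probes on the array, for 10 of 21946 named genes. Egr3 and Srf had 2 probes each, Nr4a3 had 3 and the other 7 genes had 1.

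Cells were given LPS at 10 ng/ml for 4 h (2 arrays, replicates A and B) or left untreated (2 arrays, replicates A and B). LPS, the lipopolysaccharide of gram-negative bacteria, is the ligand of the receptor TLR4. The sample labels give the untreated cells an incubation time of 0 h, while the study's methods describe controls in medium alone. RAW G9 is a single clone that carries a GFP-RelA fusion under the Rela promoter and an mCherry reporter under the Tnf promoter, in both conditions, and the labels name only the parental line. The methods call the duplicates biological, without saying whether they came from separate cultures, so the p-values measure the spread between these 4 samples. RNA was hybridized to Illumina bead arrays, on which the signal of a probe is the mean brightness of its beads in arbitrary units.

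The condition and the slide cannot be told apart in any comparison below, since each LPS array lay on a slide of its own and both untreated arrays shared another slide. The LPS arrays were dimmer, with median signals of 104 and 105 in LPS arrays and 118 and 114 in untreated arrays. The arrays also differed in spread. The 95th percentile was 7.47 and 6.59 times the median in LPS arrays, and 12.0 and 10.1 times in untreated arrays. Both LPS signals lay below both untreated signals for 89.3% of the 17211 tested probes, and above them for only 4.11%. Changes are therefore given after background correction and quantile normalization, on the log2 scale, as LPS minus untreated. Quantile normalization gives all arrays the same distribution, and so removes the difference in spread. A probe was tested if its detection p, the comparison with negative-control probes on the same array, was under 0.1 on both arrays of a condition. The median change of all tested probes was -0.07. Of a list of 10 macrophage markers, 8 were detected in both conditions (Mertk and Msr1 were not), while 0 of 4 T cell, 0 of 3 B cell and 0 of 5 fibroblast markers with a probe were detected in either. Of 5 epithelial markers, Krt8 and Cdh1 were detected.

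Immediate-early genes are transcribed within minutes of a stimulus without new protein synthesis, and many of their transcripts are short-lived. Serum response factor, encoded by Srf, and cAMP-responsive factors such as CREB drive many of them from sites near the transcript start. EGR proteins are zinc finger transcription factors that bind GC-rich DNA, NR4A proteins are orphan nuclear receptors, and the IER genes encode smaller proteins of stress, survival and proliferation responses. In macrophages, TLR4 signaling reaches such genes through MAP kinases and NF-κB.

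Egr1 and Ier3 were strongly higher in LPS-treated cells, and Egr2 passed the test with a small rise. Egr3 and Srf were detected and did not pass. Ier2, Ier5, Nr4a1, Nr4a2 and Nr4a3 were not detected on both arrays of either condition and were not tested. Thus 5 of the 10 genes were detected in LPS-treated cells and the same 5 in untreated cells, against 41.4% of all named genes in LPS-treated cells and 44.1% in untreated cells. Of the 7 tested member probes, 3 passed as higher and 0 as lower at an adjusted p under 0.05 by limma, against 13.5% of all tested probes higher and 19% lower. At an unadjusted p under 0.05 by limma, 0 of the 7 member probes were lower, against 2847 of all 10157 tested genes. The latter count took only the brightest probe of each gene. On the normalized scale no tested member probe had overlapping groups (0 of 7). Both LPS values lay above both untreated values for 5 probes and below them for 2, against 28.7% and 40.1% of all tested probes. On the deposited signals LPS was above for 2 of the 7 and below for 5, against 4.11% and 89.3% of all tested probes. With median scaling in place of quantile normalization, 2 member probes were higher and 2 lower, against 4.76% and 58.7% of all tested probes.

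**Figure D1:**
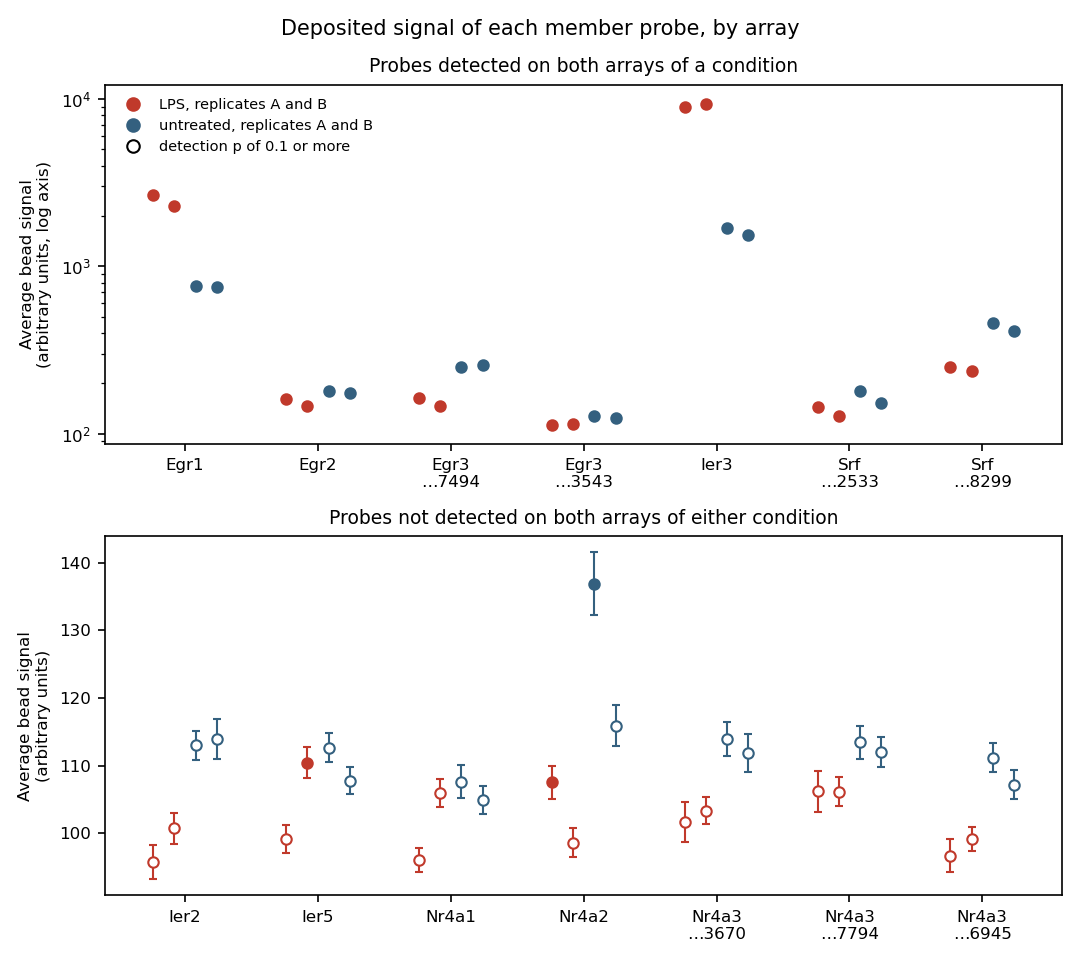
Deposited signal of each of the 14 member probes in arbitrary units, on a log axis for the 7 tested probes (top) and a linear axis for the 7 others (bottom). Points are single arrays, LPS left of untreated, bars are the standard error over beads (smaller than the point in most of the top panel), and open points have a detection p of 0.1 or more. Among the tested member probes only those of Egr1 and Ier3 have LPS signals above the untreated signals, as do 4.11% of all tested probes.

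Ier3 showed the largest rise of the list. It encodes a stress-responsive regulator of cell survival, also known as IEX-1, and is a target of NF-κB. The Ier3 probe ILMN_1216764 had signals of 9003 and 9343 in LPS arrays, against 1699 and 1528 in untreated arrays. Each signal was the mean of 34 to 43 beads, with standard errors over beads of 228 and 394 in LPS arrays and 58.0 and 48.3 in untreated arrays. The groups lay far apart compared with the difference between duplicates or between beads. After normalization the log2 values were 13.32 and 13.35 in LPS arrays and 10.13 and 10.30 in untreated arrays. The log2 change was 3.13 (standard error 0.135, 95% interval 2.81 to 3.44, adjusted p = 8.07e-06), a fold of 8.73. This change ranked 133 among the 17211 tested probes, counted from the largest rise. The ratio of the mean deposited signals, neither background-corrected nor normalized, was 5.69.

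The window of 250 bases before the annotated start of Ier3 is shown because it held the only match to a κB motif among the promoter windows of the 7 members that had one in the table. The sequence is from RefSeq on GRCm38.p6, chr17:35821463-35821712, on the plus strand, with the match in capitals, 92 to 83 bases before the start.
Ier3: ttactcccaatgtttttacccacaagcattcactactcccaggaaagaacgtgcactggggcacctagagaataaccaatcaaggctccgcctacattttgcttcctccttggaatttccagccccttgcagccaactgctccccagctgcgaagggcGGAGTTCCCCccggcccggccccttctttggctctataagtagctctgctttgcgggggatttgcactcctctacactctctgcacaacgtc
The κB motif, searched on both strands, was matched on the minus strand here. At least 1 match occurred in 3.9% of the 32851 promoter windows of the same length in the table, so its presence is a description and no evidence of binding.

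The 3 genes whose 4 log2 values, each less the mean of the untreated arrays, were nearest to those of Ier3 were Cdc42ep2, Plaur and Usp18. Cdc42ep2 encodes an effector of the small GTPase Cdc42, Plaur the urokinase receptor, and Usp18 a protease that removes the ubiquitin-like protein ISG15. Their root mean square differences from Ier3 over the 4 arrays were 0.0435, 0.0548 and 0.0578 on the log2 scale. No member fell past the threshold, so no such genes were sought for a fall.

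Egr1 was the other member with a large rise. It is the best-known EGR gene and a classic target of Srf and its cofactors. The Egr1 probe ILMN_2662926 had signals of 2672 and 2292 in LPS arrays, against 762 and 749 in untreated arrays. The bead standard errors were 87.0 and 62.1 in LPS arrays and 23.0 and 33.8 in untreated arrays, from 33 to 51 beads. The difference between the LPS duplicates exceeded the bead error, and both LPS signals were still well above both untreated signals. The log2 values were 11.62 and 11.53 in LPS arrays and 8.81 and 9.12 in untreated arrays. The log2 change was 2.61 (standard error 0.153, 95% interval 2.25 to 2.97, adjusted p = 3.00e-05), a fold of 6.09, and ranked 211 among the tested probes. The ratio of the mean deposited signals was 3.28. Egr1 and Ier3 passed as higher in each of the 13 alternative settings as well, with log2 changes of 1.96 to 2.80 for Egr1 and 2.69 to 3.49 for Ier3.

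Egr2, which encodes the zinc finger factor also known as Krox20, gave a different picture. The Egr2 probe ILMN_2623983 had signals of 161 and 146 in LPS arrays, against 180.3 and 175 in untreated arrays. It was detected on all 4 arrays at a detection p of 0. Its signals did not overlap, with LPS lower, as for 89.3% of all tested probes. After normalization the order was turned, with log2 values of 6.65 and 6.53 in LPS arrays and 5.87 and 6.12 in untreated arrays. The log2 change of 0.59 (standard error 0.146, 95% interval 0.25 to 0.94, adjusted p = 0.0204) was a fold of 1.51. With median scaling of the background-corrected signals in place of quantile normalization, the change was -0.18 (adjusted p = 0.439). Under median scaling the median change of all tested probes was -0.62, and relative to that median Egr2 stood at 0.44. The Egr2 call was lost without untreated replicate A (0.44, adjusted p = 0.25), without untreated replicate B (0.71, adjusted p = 0.0835) and with the slide as a random block (adjusted p = 0.0714).

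The pair of Egr3 probes differed in direction, and neither passed. Egr3 encodes a close relative of Egr1 that binds the same GC-rich element. The Egr3 probe ILMN_1227494 had signals of 163 and 147 in LPS arrays, against 250.1 and 257 in untreated arrays. Its log2 values were 6.69 and 6.56 in LPS arrays and 6.69 and 7.12 in untreated arrays, so that LPS replicate A and untreated replicate A were nearly equal. Its log2 change was -0.28 (95% interval -0.69 to 0.12, adjusted p = 0.25). The Egr3 probe ILMN_2653543 was close to the detection limit, with signals of 113 and 115 in LPS arrays and 127 and 125 in untreated arrays. Its detection p was 0.0256 and 0.0128 in LPS arrays and 0.0577 and 0.0256 in untreated arrays. Its log2 change was 0.27 (95% interval -0.07 to 0.61, adjusted p = 0.189). Under median scaling the Egr3 probe ILMN_1227494 passed as lower (-1.10, adjusted p = 0.000146, or -0.48 relative to the median of all tested probes). The Egr3 probe ILMN_2653543 passed as higher with median scaling over the tested probes (0.82, adjusted p = 0.00194). Without LPS replicate A it stood at 0.41, on a single LPS array, so that the spread within LPS could not be measured.

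Srf itself, which encodes the MADS-box factor that binds the CArG box, was detected by both of its probes on all 4 arrays. The Srf probe ILMN_2988299 had signals of 249.9 and 236 in LPS arrays, against 460.4 and 409 in untreated arrays, and log2 values of 7.81 and 7.91 in LPS arrays and 7.93 and 8.06 in untreated arrays. Its log2 change was -0.13 (95% interval -0.45 to 0.18, adjusted p = 0.483). The Srf probe ILMN_1242533 had signals of 145 and 129 in LPS arrays, against 181 and 153 in untreated arrays, and log2 values of 6.29 and 5.94 in LPS arrays and 5.89 and 5.68 in untreated arrays. Its log2 change was 0.33 (95% interval -0.06 to 0.72, adjusted p = 0.173). On the normalized scale the probes thus moved in opposite directions within their intervals. The deposited signals of both were lower with LPS, as for 89.3% of all tested probes. Under median scaling ILMN_2988299 passed as lower (-1.0, adjusted p = 0.00023) and ILMN_1242533 changed sign (-0.38, adjusted p = 0.147). The median change of all tested probes was then -0.62, and 58.7% of them were called lower. Relative to that median ILMN_2988299 stood at -0.39 and ILMN_1242533 at 0.24. Without LPS replicate B, ILMN_1242533 stood at 0.52, on a single LPS array, so that the spread within LPS could not be measured.

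**Figure D2:**
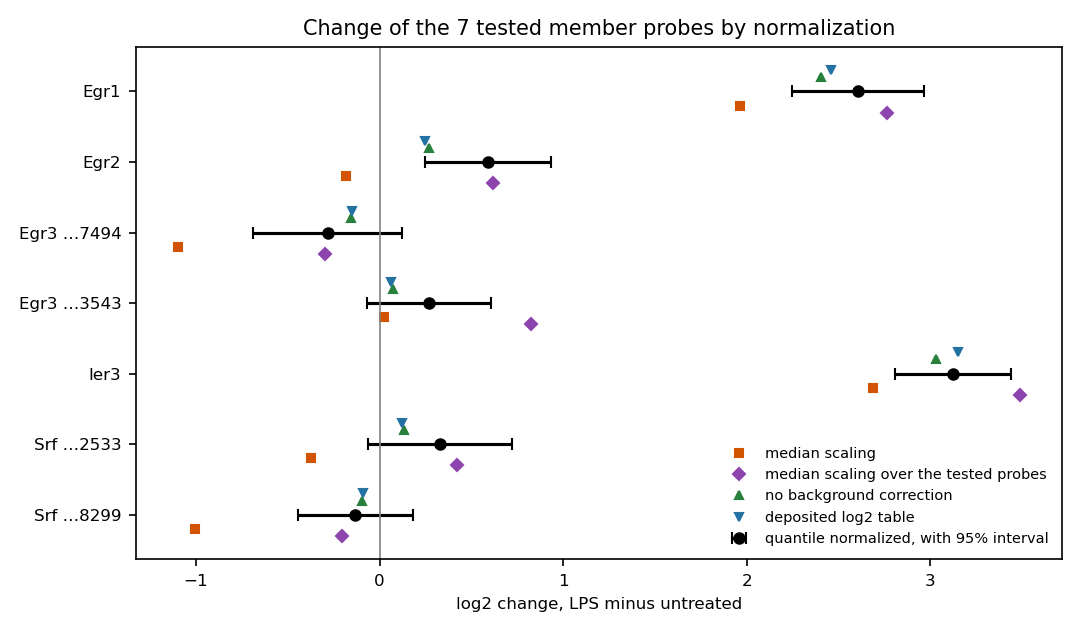
Log2 change, LPS minus untreated, of the 7 tested member probes after quantile normalization (black points with 95% intervals, 2 arrays per condition) and under 4 other normalizations (coloured symbols). Egr1 and Ier3 lie at 1.96 or more under each, whereas median scaling puts Egr2 at -0.18 and the Srf probe ILMN_1242533 at -0.38, below 0. Under median scaling the median change of all tested probes was -0.62.

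CArG box matches near the starts of Srf and Egr2 are shown because these members carried all of those found in the windows searched. RefSeq windows on GRCm38.p6 were found for 7 of the 10 members (Egr1, Egr3 and Ier2 had none in the table), and sites of 30 bases are given where the gene model extends past the start used. CArG boxes are in capitals. The Srf stretch is chr17:46556215-46556244 on the minus strand, 82 to 53 bases before the start. The Egr2 stretches, both on the plus strand, are chr10:67537484-67537513 before start 2 and chr10:67537787-67537816 before start 3 of its 5 annotated starts.
Srf: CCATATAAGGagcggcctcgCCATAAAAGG
Egr2 start 2: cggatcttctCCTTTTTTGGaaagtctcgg
Egr2 start 3: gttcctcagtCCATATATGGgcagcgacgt
The windows of Egr2 starts 4 and 5 hold the same box as that of start 3. At least 1 CArG box occurred in 1.47% of the 32851 windows, and at least 2, as in Srf, in 0.0183%.

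The EGR motif GCGNGGGCG was found once each in the windows of Nr4a1, Nr4a2 and Srf, and at least once in 4.7% of all windows. The NR4A motif AAAGGTCA was found in none of the member windows, and in 1.34% of all windows. The Ier5 window held none of the motifs searched. Both strands were searched, and a match shows only that these letters are present.

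**Figure D3:**
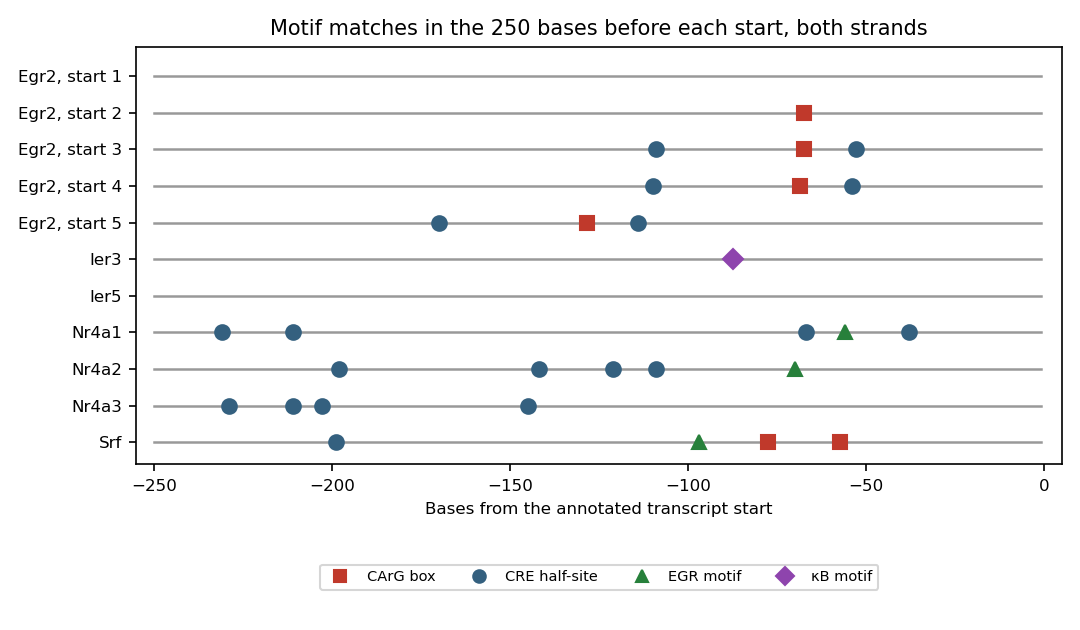
Position of motif matches in the 250 bases before each annotated start of 7 member genes (horizontal axis, bases from the start; 1 line per start). Nr4a1, Nr4a2 and Nr4a3 each have 4 CRE half-sites, the Srf window has 2 CArG boxes, and among these 7 genes the κB motif occurs before Ier3 alone.

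None of the NR4A genes was detected on both arrays of a condition. Nr4a1 (Nur77), Nr4a2 (Nurr1) and Nr4a3 (NOR1) encode nuclear receptors that are regulated mainly by their amount. The Nr4a1 probe ILMN_2701881 had signals of 96.1 and 106 in LPS arrays, against 108 and 105 in untreated arrays. The lowest signal of any detected probe was 107 and 109 in LPS arrays and 123 and 119 in untreated arrays, so Nr4a1 lay under this limit on each array. The Nr4a2 probe ILMN_1254547 had signals of 108 and 98.6 in LPS arrays, against 137 and 116 in untreated arrays. Replicate A of each condition was detected, at a detection p of 0.0929 in the LPS array and 0.0118 in the untreated array, and replicate B was not. The 3 Nr4a3 probes had signals of 96.7 to 106 in LPS arrays and 107 to 114 in untreated arrays, and none was detected on any array. With all 45281 probes in the test, the adjusted p of the 7 member probes that the detection filter left out was 0.295 to 0.994.

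The windows before the starts of Nr4a1, Nr4a2 and Nr4a3 are shown because they shared a feature not used to choose them. Each held 4 matches to TGACG, a half-site of the cAMP response element, on either strand. The full element TGACGTCA, which contains the half-site, was in none of the member windows. At least 1 half-site occurred in 17.8% of the 32851 windows and at least 4 in 0.137%, a number of matches chosen after they were seen. The whole window is given for Nr4a2 (RefSeq, GRCm38.p6, chr2:57124004-57124253, minus strand). A stretch of 30 bases with 2 of the 4 matches is given for Nr4a1 (chr15:101266611-101266640, plus strand) and Nr4a3 (chr4:48045088-48045117, plus strand). Matches are in capitals, and CGTCA is the half-site read on the other strand.
Nr4a2: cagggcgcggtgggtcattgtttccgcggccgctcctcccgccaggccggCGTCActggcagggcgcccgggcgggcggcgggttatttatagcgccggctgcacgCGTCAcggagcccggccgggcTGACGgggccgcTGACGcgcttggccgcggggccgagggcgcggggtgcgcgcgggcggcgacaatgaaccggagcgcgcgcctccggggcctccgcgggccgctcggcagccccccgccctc
Nr4a1: tgCGTCAatggaaccccgcgtgCGTCAcgc
Nr4a3: atgtCGTCAcatTGACGtctcgcattccag

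Ier2 and Ier5, nuclear proteins that growth factors and stress induce, were also at the limit of detection. The Ier2 probe ILMN_2642705 had signals of 95.8 and 101 in LPS arrays, against 113 and 114 in untreated arrays, and was detected on none of them. The Ier5 probe ILMN_2642275 had signals of 99.2 and 110.5 in LPS arrays, against 113 and 108 in untreated arrays. Only LPS replicate B passed for Ier5, at a detection p of 0.0598. Without LPS replicate A the Ier5 probe entered the test and passed as higher (0.49, adjusted p = 0.0113), on a single LPS array, which was assumed to vary like the untreated ones. For these genes the arrays show that the level was not detectable, not that transcripts were absent.

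Other immediate-early genes rose more often than they fell. Of a list of 38 such genes, 36 had a probe and 28 were tested, each by its brightest probe. The test called 18 of them higher and 3 lower, with 7 not passing, against 13.6% higher and 21.1% lower over all tested genes. The median log2 change was 0.78, compared with -0.09 over all tested genes. This list and the lists below were chosen with earlier results of these data known, so the counts only describe the genes listed. Of the genes called higher, Myc and Ptgs2 were detected on 0 untreated arrays and entered the test through the LPS arrays alone. Klf4, called lower, was detected on 0 LPS arrays. The largest rises were those of Csrnp1, a nuclear protein gene, at 3.39 (adjusted p = 4.38e-06), and Gadd45b, a stress sensor gene, at 3.23 (adjusted p = 3.73e-05). They were followed by Zfp36, which encodes the mRNA decay factor tristetraprolin, at 3.03 (adjusted p = 8.20e-06), and the kinase gene Plk2, also at 3.03 (adjusted p = 8.64e-06). The Ier3 change of 3.13 fell within the range of these 4 genes. Egr4 and Fosb were not detected on both arrays of either condition, and neither were the NR4A genes.

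Fos was lower in LPS-treated cells while Egr1 was higher. Fos, a subunit of the AP-1 factor and, like Egr1, a target of SRF, had log2 values of 8.14 and 7.71 in LPS arrays and 8.92 and 9.06 in untreated arrays. The change was -1.07 (adjusted p = 0.00375), and Fos passed as lower in each alternative setting, at -1.94 to -0.81. Zfp36l1, a relative of Zfp36, was lower by the brighter of its tested probes (-0.60, adjusted p = 0.0171), and the other stood at -0.09 (adjusted p = 0.726). The zinc finger factor gene Klf4 was lower as well (-0.54, adjusted p = 0.0241), at least 1.35-fold, a bound set by the lowest level of any detected probe because Klf4 was not detected with LPS. Another tested Klf4 probe had a change of -0.22 (adjusted p = 0.255). The falls of Zfp36l1 and Klf4 did not pass without untreated replicate A (adjusted p = 0.0675 and 0.153) or without untreated replicate B (adjusted p = 0.199 and 0.284), nor with the slide as a random block (adjusted p = 0.0589 and 0.082). Klf4 also did not pass without background correction (adjusted p = 0.118), and stood at 0.11 (adjusted p = 0.636) with median scaling over the tested probes.

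Among 14 genes whose products work with EGR, SRF or NR4A factors, 7 were tested, with a median log2 change of -0.02. The test called 1 of them higher and 1 lower, against 13.6% higher and 21.1% lower over all tested genes. Elk3, a ternary complex factor that acts with SRF, had log2 values of 8.13 and 7.90 in LPS arrays and 9.86 and 9.90 in untreated arrays. Its fall of -1.86 (adjusted p = 0.000104) passed in each alternative setting. Nab2, a corepressor that binds EGR proteins, had log2 values of 5.92 and 5.78 in LPS arrays and 5.37 and 5.48 in untreated arrays. Its rise of 0.43 (adjusted p = 0.0481) was at the threshold and changed sign under median scaling (-0.18, adjusted p = 0.441), where the median change of all tested probes was -0.62. It did not pass without untreated replicate A (adjusted p = 0.394) or B (adjusted p = 0.242), nor without background correction (adjusted p = 0.113) or with the slide as a random block (adjusted p = 0.146). The related corepressor gene Nab1 had a log2 change of -0.29 (adjusted p = 0.131).

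Cytoskeletal genes known as SRF targets were represented by 19 of 20 genes, of which 14 were tested. The test called 5 of them higher and 0 lower, with a median log2 change of 0.28, against 13.6% higher, 21.1% lower and a median of -0.09 over all tested genes. At an unadjusted p under 0.05 by limma 0 of the 14 were lower, against 2847 of all 10157 tested genes. The counts took the brightest probe of each gene, by which Actb (0.08) and Wdr1 (0.17) did not pass. Other Actb probes passed as higher (0.96, 1.39 and 1.25, adjusted p = 0.00186, 0.0143 and 0.0357), and a further one did not (0.18, adjusted p = 0.41). Another Wdr1 probe also passed as higher (0.60, adjusted p = 0.0138). Zyx, which encodes the focal adhesion protein zyxin, had log2 values of 11.99 and 12.02 in LPS arrays and 10.83 and 10.84 in untreated arrays, a change of 1.17 (adjusted p = 0.000601). Acta2, the smooth muscle actin gene, was higher by its brightest probe (1.38, adjusted p = 0.00539). This probe had log2 values of 6.20 and 6.97 in LPS arrays and 5.11 and 5.29 in untreated arrays. It did not pass without the detection filter (adjusted p = 0.0595). Another tested Acta2 probe had a change of 0.17 (adjusted p = 0.441). The remaining Acta2 probes were not detected on both arrays of either condition. The remaining genes called higher were Actn1 (0.74, adjusted p = 0.0255), Vcl (0.70, adjusted p = 0.0173) and Flna (0.65, adjusted p = 0.0108), which encode alpha-actinin, vinculin and filamin A. Actn1, Vcl and Flna did not pass without untreated replicate A, nor without untreated replicate B. Each of these fits had a single untreated array, and fewer of all tested probes passed in them as well. With the slide as a random block 3 of the 14 were higher, against 9.3% of all tested probes. Actn1 and Vcl did not pass there (adjusted p = 0.05002 and 0.05009). With median scaling 2 genes of the list, at 1 probe per gene, were higher and 5 lower. Of all tested probes, with every probe of a gene counted, 4.76% were higher and 58.7% lower. Vcl and Flna then stood at -0.16 and -0.20, against a median of -0.69 over all tested genes.

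**Figure D4:**
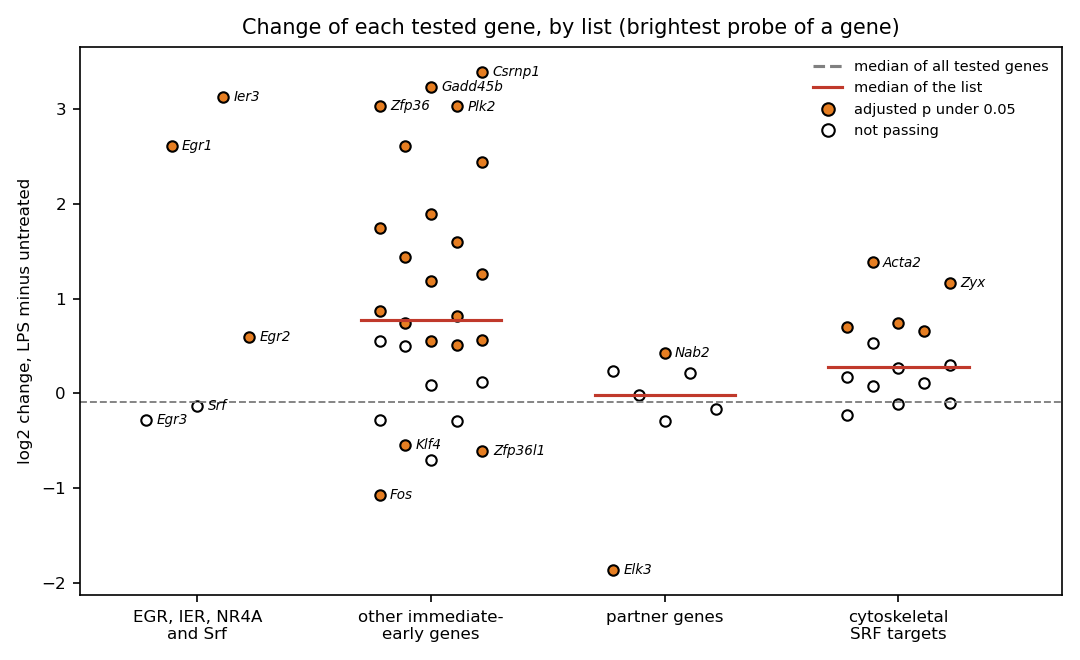
Log2 change, LPS minus untreated, of each tested gene by list, with 1 point per gene (its brightest probe), filled where the adjusted p is under 0.05. Red lines are list medians (0.78, -0.02 and 0.28 for the 3 lists of other genes), the dashed line is the median of all tested genes (-0.09), and Egr1 and Ier3 lie among the largest rises of the other immediate-early genes.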

How the data were processed

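GenomeStudio 2011.1 was used by the authors to read a signal intensity for each probe from the array images. The deposited single-array files give it on a linear scale, not background-subtracted, beside a detection p-value, the standard error over beads and the number of beads. A further deposited table holds log2 values of the same arrays, which share 1 distribution. The platform annotation named the probes (35784 of 45281 with 1 symbol, 9497 with none), and symbols were updated through RefSeq of GRCm38.p6.

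Background was corrected in R 4.3.3 by the nec function (limma 3.58.1, offset of 16), the negative controls being estimated from detection. Quantile normalization and log2 followed. Detected probes (17211, by the rule in the report) were tested by lmFit and eBayes, with Benjamini-Hochberg adjustment over all of them and a threshold of 0.05. The procedure was tested on simulated data. The simulated conditions were given the same brightness and spread and no slide effect, so the simulation does not cover these features of the real arrays. With 2 arrays against 2 an exact permutation test cannot go below p = 0.333, and the number of arrays limits the precision.

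The members and lists were chosen with earlier results of these data known. All members were named, and of each other list up to 4 rises and 3 falls past the threshold, or all of a set of up to 5. Other genes named beside counts were chosen after their values were seen. Alternatives were other corrections, scalings, offsets and filters, the slide or replicate letter as a block, and leaving out each array.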

Additional observations from a re-analysis of the deposited data

How the results depend on the processing

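The rises of Egr1 and Ier3 passed in every alternative run. The calls of the other tested members changed with scaling, with the slide as a block or when an array was left out. With median scaling 2 member probes were higher and 2 lower, and 819 of all tested probes were higher and 10095 lower (7.5% of calls higher, compared with 41.6% after quantile normalization, where 2332 were higher and 3273 lower). Egr2 then stood at -0.18 and the Srf probe ILMN_1242533 at -0.38, against a median of -0.62 over all tested probes. Under this scaling 6 other immediate-early genes were lower, 0 partner genes higher and 4 lower, and 2 cytoskeletal genes higher and 5 lower. Median scaling over the tested probes, chosen after seeing the data, gave 6002 probes higher (68.3% of calls), 3 partner genes higher and 9 cytoskeletal genes higher. With the slide as a random block, 2017 probes were lower, 1 other immediate-early gene lower, 0 partner genes higher and 3 cytoskeletal genes higher. No partner gene was higher (0) with no background correction, with the deposited log2 table, with an offset of 50 or with no filter on detection, and without that filter 2 cytoskeletal genes were higher. Leaving out 1 array gave 1085 to 4032 probes higher and 1013 to 4859 lower, 2 to 5 member probes higher, 12 to 21 other immediate-early genes higher and 1 to 5 lower, 0 to 2 partner genes higher and 1 to 2 lower, and 2 to 7 cytoskeletal genes higher. The counts fell when an untreated array was left out (1106 higher without replicate A, 1085 without replicate B) and grew when an LPS array was (4032 without replicate A, 3941 without replicate B); the cause was not tested.

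The replicate letter was not taken to pair the arrays, since the deviations of the A arrays from their group means correlated at 0.145 in a design with only 2 pairs. With it as a replicate block, 15.3% of probes were higher and 21.4% lower, and the calls of the 7 member probes were the same (3 higher, 0 lower; Egr2 adjusted p = 0.0117). Of the changes of single member probes under the alternatives, 80 kept direction and call, 5 gained a call, 3 lost it and 2 changed sign. Egr2 under median scaling was counted with the changes of sign only, and it lost its call there too. Counts of detected members stayed between 5 and 7 of 10. Signals near the lowest detected signal limit what can be said of Ier2, Ier5 and the NR4A genes.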
